A study of Mus musculus with 30 samples.

Results

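The livers of adult female offspring exposed to bisphenol S (BPS) before weaning were compared with those of control females, 6 libraries of the 30 in the series. The BPS libraries came from 3 females of the outbred ICR stock, aged 10 weeks, whose dams drank water with 10 ng/mL BPS in 0.001% ethanol, a labelled dose of 5 µg/kg/day. Dams drank it for about 40 days, from the start of pregnancy to weaning, with 8 dams a group. The control libraries came from 3 females of the same stock and age whose dams drank 0.001% ethanol alone. BPS was also set beside 3 other exposures at the same labelled dose, with 3 female libraries each: the positional isomer 2,4-BPS, the isopropyl ether BPSIP, and estradiol (E2). The labels give no mutation or transgene, and the offspring of a group came from litters of different dams.

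BPS joins a pair of phenol rings through a sulfone and has taken over many uses of bisphenol A. The liver makes most plasma proteins, cholesterol, bile acids and glucose for the body. Sterol supply, unfolded proteins, interferon, growth hormone and the circadian clock each act there on their own sets of genes through dedicated transcription factors.

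The BPS and control libraries summed to between 33360839 and 37357181 counts. Gene levels below are in CPM, a gene's count relative to the scaled total of its library, and ± beside a level is the SD over 3 libraries. Among 1404 genes of at least 100 CPM, the median coefficient of variation within a group was 3.65% in BPS and 2.34% in control libraries, where counting alone would give 1.18% and 1.15%. P-values measure only the spread between libraries within groups, estimated over all 15 female libraries, those of the other exposures included. Among the same genes the median coefficient of variation was 4.43% in 2,4-BPS, 4.09% in BPSIP and 5.36% in E2 libraries. Alb, the gene of serum albumin, had 88639, 99893 and 100613 CPM in BPS livers and 88697, 85502 and 88919 CPM in control livers, and the groups overlapped. The summed level of 4 Y-linked genes was 0.344 to 0.473 CPM in BPS and 0.272 to 0.543 CPM in control livers. Fewer cells of a type and less RNA per cell cannot be told apart in such bulk samples.

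Of 13874 genes tested, 1293 (9.32%) were higher and 1040 (7.5%) lower in BPS than in control livers at an adjusted p under 0.05. Most changes were small: the median size of a called change was 0.40 on the log2 scale, and 108 genes rose and 154 fell by more than 2-fold. The median log2 fold change of all genes tested was -0.01. Groups that do not overlap were common: all BPS libraries lay above all control libraries in 2553 genes (18.4%) and below them in 2329 (16.8%), called or not. Genes drawn for the largest changes or smallest p had to show no overlap, so it is no further result for them. Among the genes with the largest rises were the cell cycle inhibitor Cdkn1a, the inducible chaperones Hspa1a and Hspa1b, the fatty acid hydroxylase Cyp4a14 and the clock activator Arntl. Among those with the largest falls were Cyp4a12b, a fatty acid hydroxylase of male mouse liver, and Fst, which encodes the activin antagonist follistatin.

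**Figure D1:**
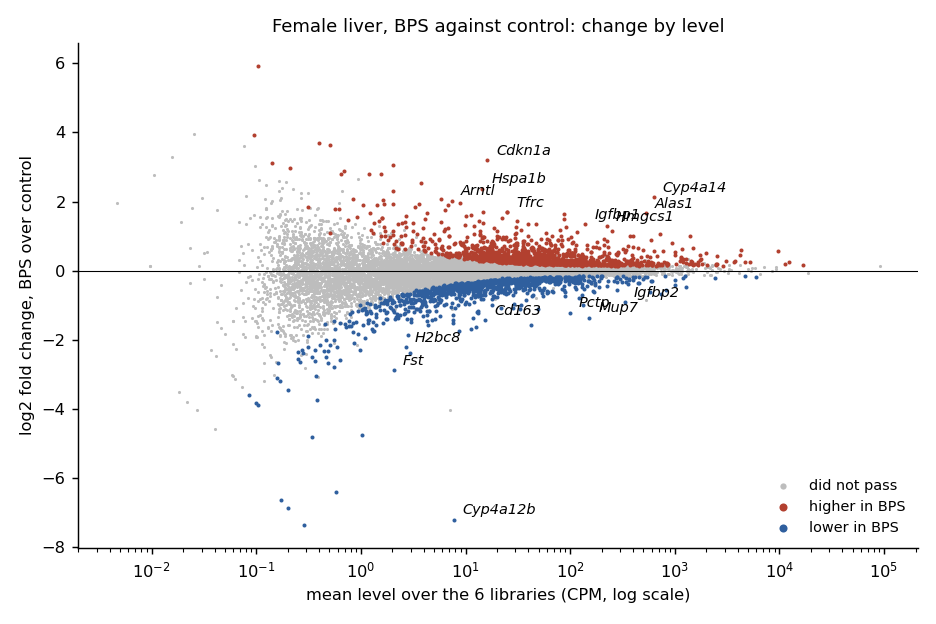
Each point is a gene, placed by its mean level over the 6 libraries in CPM (horizontal, log scale) and its log2 fold change of BPS over control (vertical). Red points (1293) passed as higher in BPS, blue points (1040) as lower, and grey points did not pass.

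Cdkn1a, which encodes the cell cycle inhibitor p21, had 31.8, 28.3 and 27.5 CPM in BPS livers, against 2.69, 2.94 and 3.85 CPM in control livers. Every BPS library lay far above every control library, at a log2 fold change of 3.20 ± 0.12 (± beside a log2 fold change is its standard error, and each runs BPS over control unless stated; sizes of rises and falls are on the log2 scale). Scaled for length, its deposited level averaged 13.9 ± 1.5 FPKM in BPS livers and 1.59 ± 0.302 FPKM in control livers. Other brakes on proliferation were higher too. Btg2, an antiproliferative gene, had 25.6, 26 and 26.8 CPM in BPS livers, against 10, 10.6 and 12.4 CPM in control livers (1.25 ± 0.11). Gadd45g, a growth arrest gene, averaged 27.6 ± 0.578 CPM in BPS livers and 12.3 ± 1.33 CPM in control livers (1.16 ± 0.10). Neither gene's groups overlapped. In the list of p53 targets and growth restraint 9 of 34 tested members rose and 3 fell, with a median of 0.04. Cdkn1a, Btg2 and Gadd45g are among the members of that list that rose. Mdm2, Ccng1 and Bax, other p53 target genes, did not pass, at 0.07 ± 0.10, -0.03 ± 0.08 and 0.03 ± 0.11. Gdf15, a stress-induced cytokine gene, had 1.14, 0.812 and 0.914 CPM in BPS livers, against 1.76, 1.91 and 2.62 CPM in control livers (-1.13 ± 0.28).

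In the cell cycle list 1 of 38 tested members rose and 4 fell (median -0.09), a share near the 16.8% called either way among all genes, and those that fell numbered 2 without BPS library 2 or control library 2. Ccnd1, which encodes cyclin D1 of the G1 phase, had 89.5, 103 and 88.5 CPM in BPS livers, against 138, 133 and 138 CPM in control livers (-0.54 ± 0.06). All BPS libraries were lower than all control libraries. Cdt1, a licensing factor of DNA replication, fell by 0.69 ± 0.20 on the log2 scale, and Top2a, a topoisomerase of dividing cells, rose by 0.56 ± 0.19 at levels under 6 CPM. Neither call held in every fit without 1 library: Cdt1 missed the threshold without BPS library 1 or control library 2, and Top2a without any 1 library other than BPS library 2.

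Cholesterol synthesis was higher along most of its length: 17 of 22 tested members rose and none fell, with a median log2 fold change of 0.47. Hmgcs1, the synthase of an early step, had 304, 327 and 321 CPM in BPS livers, against 133, 130.5 and 129 CPM in control livers (1.28 ± 0.05). Sqle, the squalene epoxidase, had 64.7, 74.4 and 64.6 CPM in BPS livers, against 25.4, 24.7 and 29.3 CPM in control livers (1.36 ± 0.07). For both genes every BPS library exceeded every control library. Of the enzymes between them, in pathway order, Mvd rose by 1.45 ± 0.11, Idi1 by 1.07 ± 0.09, Fdps by 0.51 ± 0.05 and Fdft1 by 0.52 ± 0.05. Among later steps Cyp51 rose by 0.75 ± 0.06, Msmo1 by 1.12 ± 0.06 and Dhcr7 by 0.40 ± 0.06. The 5 members that did not pass were Ebp, Sc5d, Tm7sf2, Nus1 and Ggps1, between -0.04 ± 0.17 and 0.12 ± 0.06.

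Hmgcs1 is a textbook target of the sterol-sensing factor SREBP2, so its promoter is shown: 250 bases before the start (RefSeq, GRCm38.p6, chr13:119690101-119690350, plus strand), with capitals at the match to TCACNCCAC, a sterol regulatory element.
Hmgcs1: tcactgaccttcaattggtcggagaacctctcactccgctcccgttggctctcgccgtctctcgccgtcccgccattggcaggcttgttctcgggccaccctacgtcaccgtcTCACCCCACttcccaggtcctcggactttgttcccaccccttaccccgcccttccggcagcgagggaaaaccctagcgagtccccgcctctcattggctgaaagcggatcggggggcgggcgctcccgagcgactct
This motif was searched on both strands of windows from 250 bases before to 50 bases after the start. It was found for 1 of 12 matched enzymes that rose, Hmgcs1 itself, and for 1.42% of matched tested genes. Here and below a gene counts if any of its windows holds the motif.

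Genes around the pathway moved in part with it: in sterol sensing, uptake and efflux 7 of 24 tested members rose and 2 fell (median 0.02). Insig1, a sterol-regulated anchor of SREBP, had 170.0, 193 and 185 CPM in BPS livers, against 117, 105 and 109 CPM in control livers (0.73 ± 0.06). Its groups did not overlap. Srebf2, which encodes SREBP2, rose by 0.23 ± 0.06. Vldlr, a receptor for triglyceride-rich lipoproteins, fell by 0.74 ± 0.11, and Srebf1 did not pass (0.05 ± 0.05). Cyp7a1, which catalyses the slowest step from cholesterol to bile acids, had 446, 511 and 528 CPM in BPS livers, against 310.1, 305 and 303 CPM in control livers (0.69 ± 0.06). Its groups were well apart. In bile acid synthesis and transport 7 of 25 tested members rose and 3 fell (median 0.08). Cyp8b1, which sets the share of cholic acid, averaged 321 ± 17.7 CPM in BPS livers and 354 ± 11.6 CPM in control livers and did not pass (adjusted p = 0.0771). Nr0b2, which encodes the bile acid-induced repressor SHP, rose by 0.53 ± 0.09.

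**Figure D2:**
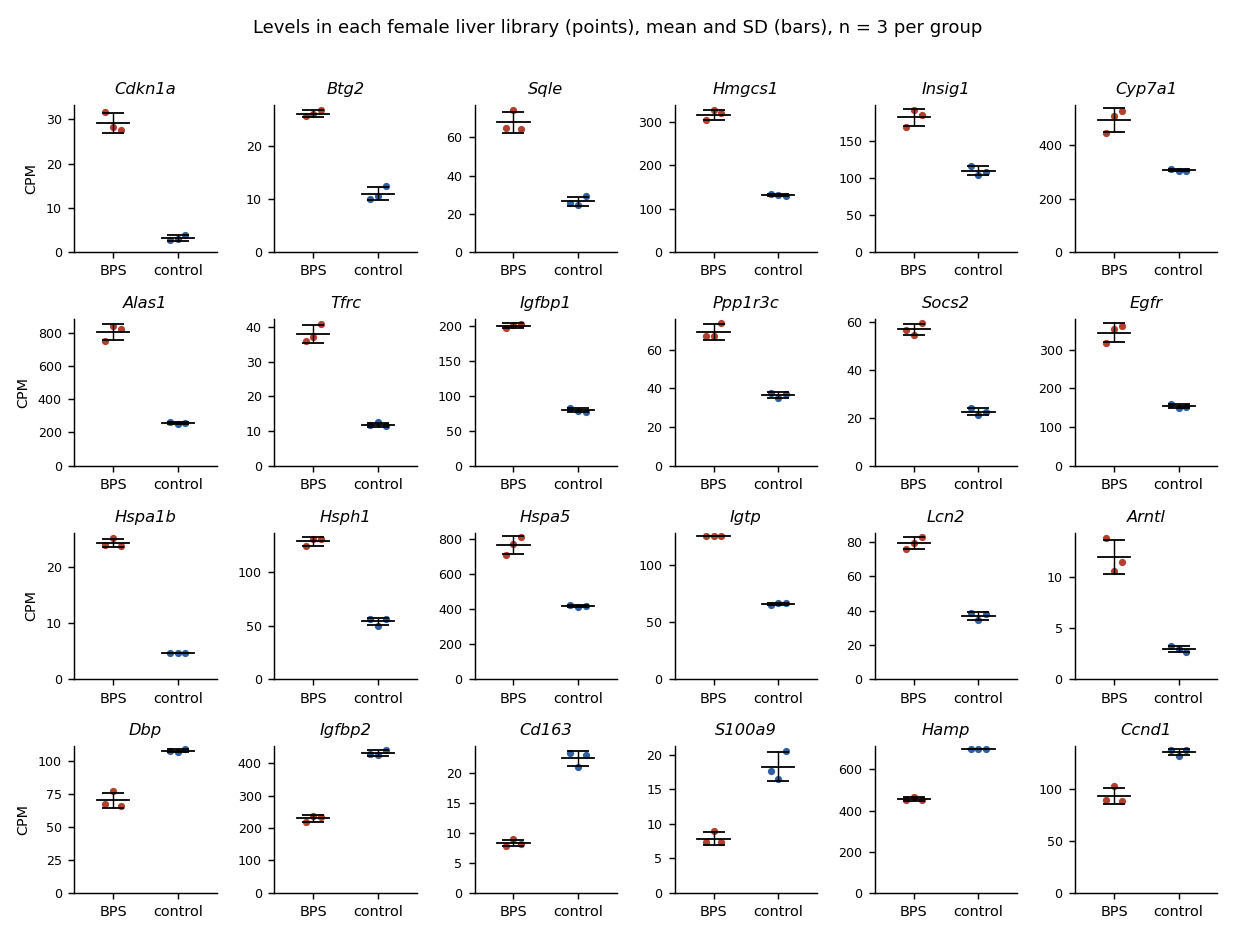
Levels in CPM (vertical axes from 0) of 24 genes in each library (points), BPS left and control right, with mean and SD as bars (n = 3). The BPS points lie wholly above or wholly below the control points in each panel, as they do in 18.4% (above) and 16.8% (below) of all genes tested, and the genes were picked among those that passed.

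In fatty acid and triglyceride synthesis 9 of 28 tested members rose and 3 fell (median 0.11). Thrsp, a lipogenic gene under thyroid hormone and carbohydrate control, had 1199, 1244 and 1154 CPM in BPS livers, against 685, 686 and 687 CPM in control livers (0.80 ± 0.06). Lpin1, a phosphatidate phosphatase of triglyceride synthesis, averaged 527 ± 39.9 CPM in BPS livers and 263 ± 2.27 CPM in control livers (1.00 ± 0.07). Pnpla3, a lipid droplet enzyme gene, rose by 1.91 ± 0.18 and Fasn, the fatty acid synthase, by 0.49 ± 0.06. The groups of these 4 genes did not overlap, which 18.4% of all genes also met with BPS above. Mlxipl, which encodes the carbohydrate sensor ChREBP, fell by 0.33 ± 0.06, and the desaturase Scd1 did not pass (-0.12 ± 0.06). In fatty acid oxidation and ketogenesis 3 of 31 tested members rose and 3 fell (median -0.01). That share is near the 16.8% called either way among all genes. Without control library 1 or control library 3, 1 rose. Ppara, which encodes PPAR alpha, did not pass (0.04 ± 0.07). Among lipoprotein and lipase genes 4 of 28 tested members rose and 6 fell (median 0.08), with the carboxylesterase Ces1g at -0.37 ± 0.06. Of these, 2 rose without BPS library 2, BPS library 3 or control library 2, 8 rose with the 6 libraries alone, and 3 fell without BPS library 3.

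The Cyp4a genes, which hydroxylate the ends of fatty acids, split in direction. Cyp4a14, the gene with the smallest p of all, had 999, 1009 and 1061 CPM in BPS livers, against 236, 233 and 234 CPM in control livers (2.13 ± 0.06). Cyp4a10 and Cyp4a32 rose by 1.01 ± 0.08 and 0.96 ± 0.06. The male-biased Cyp4a12b had 0.166, 0.0312 and 0.0945 CPM in BPS livers, against 12.7, 16.1 and 17.2 CPM in control livers (-7.21 ± 0.30), and Cyp4a12a fell by 1.58 ± 0.25. The 3 BPS libraries held 10 Cyp4a12b counts in all and the 3 control libraries 1713. On the log2 scale, Cyp4a12b in BPS differed by -5.77 from 2,4-BPS and by -6.51 from BPSIP livers. BPS against E2 did not pass for this gene (1.72, 95% interval -0.03 to 3.47). Inherited differences between these outbred mice were not tested. Members of the Cyp4a cluster resemble each other closely, and with reads that can fall to any of them single values are uncertain. Of Cyp4a and other PPAR alpha targets 12 of 33 tested members rose and 8 fell (median 0.04), and 5 fell without BPS library 2 or BPS library 3. The lipid droplet coat gene Plin4 rose by 1.74 ± 0.21, Pdk4, a brake on glucose oxidation, by 0.74 ± 0.11, and the pantetheinase gene Vnn1 fell by 0.48 ± 0.07. Of fat markers 2 of 6 tested members rose and 2 fell (median 0.44). With 1 library left out, 1 to 3 rose and 1 to 2 fell. The highest change among fat markers was 2.89, as in the complement and coagulation list, and Cfd was called in both. Ucp1, a fat marker too low to be tested, had 5, 82 and 15 counts in BPS and 0, 0 and 4 in control libraries. The part of fat tissue in these values was not tested.

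In gluconeogenesis and glycogen 10 of 24 tested members rose and 5 fell (median 0.10). Ppp1r3c, a glycogen-targeting subunit of protein phosphatase, had 67.1, 67.1 and 74.1 CPM in BPS livers, against 37.8, 35 and 36.9 CPM in control livers (0.92 ± 0.07). All BPS libraries were above all controls for this gene. The related subunit Ppp1r3b rose by 0.69 ± 0.06, while another, Ppp1r3g, fell by 0.72 ± 0.16. Gcgr, the glucagon receptor gene, fell by 0.30 ± 0.05. Pck1, an enzyme of gluconeogenesis, passed narrowly (0.14 ± 0.05) and missed the threshold without any 1 library other than BPS library 1, and G6pc, which releases free glucose, did not pass (0.13 ± 0.06).

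In the insulin, growth hormone and IGF axis 11 of 27 tested members rose and 5 fell (median 0.15); those that fell numbered 2 without control library 1 and 3 without BPS library 3 or control library 2. Igfbp1, an insulin-repressed IGF binding protein gene, had 196, 201 and 203 CPM in BPS livers, against 82.9, 78.6 and 76.3 CPM in control livers (1.34 ± 0.06). Igfbp2, another binding protein gene, went the other way, with 218, 238 and 235 CPM in BPS livers, against 427, 426 and 441 CPM in control livers (-0.91 ± 0.06). Neither gene's groups overlapped. Socs2, a feedback inhibitor of growth hormone signalling, had 56.5, 54.6 and 59.2 CPM in BPS livers, against 23.9, 21 and 22.5 CPM in control livers (1.34 ± 0.08), and its relative Cish rose by 1.05 ± 0.10. Igf1, the main growth hormone target, averaged 1206 ± 100.1 CPM in BPS livers and 827 ± 8.31 CPM in control livers (0.54 ± 0.06), while the receptor gene Ghr did not pass (0.14 ± 0.05). Egfr, the EGF receptor gene, had 317, 355 and 363 CPM in BPS livers, against 161, 149.8 and 152 CPM in control livers (1.16 ± 0.06). All BPS libraries were above all controls. Lepr, the leptin receptor gene, fell by 0.99 ± 0.11.

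Alas1, the rate-limiting enzyme of haem synthesis, had 749.8, 842 and 825 CPM in BPS livers, against 260.3, 247 and 257 CPM in control livers (1.66 ± 0.05). Tfrc, the transferrin receptor gene, had 36, 37.2 and 41 CPM in BPS livers, against 11.7, 12.5 and 11.3 CPM in control livers (1.69 ± 0.09). Hamp, which encodes the iron hormone hepcidin, had 453, 468 and 451 CPM in BPS livers, against 701, 699 and 699.9 CPM in control livers (-0.61 ± 0.06). The groups of these 3 genes did not overlap, with Alas1 and Tfrc higher and Hamp lower in BPS. In the metallothionein and iron list 5 of 25 tested members rose and 5 fell (median 0.05).

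Among cytosolic chaperones 16 of 27 tested members rose and none fell, with a median of 0.34. Hspa1b, an inducible HSP70, had 23.8, 25 and 23.7 CPM in BPS livers, against 4.7, 4.66 and 4.66 CPM in control livers (2.37 ± 0.13). Its near-identical neighbour Hspa1a rose by 2.55 ± 0.28, and reads may be shared between both. Hsph1, an HSP110 exchange factor, had 124, 131 and 132 CPM in BPS livers, against 55.9, 49.8 and 56.2 CPM in control livers (1.26 ± 0.06). Every BPS library was above every control library for these chaperones, as the rule that drew them required and as in 18.4% of all genes. The cochaperone genes Bag3, Chordc1 and Dnajb1 rose by 1.08 ± 0.09, 0.87 ± 0.08 and 0.81 ± 0.08, and Hsp90aa1, an inducible HSP90, by 0.66 ± 0.06. Hsf1, which encodes the heat shock factor, did not pass (-0.05 ± 0.13).

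The promoter of Hspa1b (RefSeq, GRCm38.p6, chr17:34959239-34959488, minus strand), shown because these genes rose together, holds the heat shock element in its short form, GAANNTTC, in capitals.
Hspa1b: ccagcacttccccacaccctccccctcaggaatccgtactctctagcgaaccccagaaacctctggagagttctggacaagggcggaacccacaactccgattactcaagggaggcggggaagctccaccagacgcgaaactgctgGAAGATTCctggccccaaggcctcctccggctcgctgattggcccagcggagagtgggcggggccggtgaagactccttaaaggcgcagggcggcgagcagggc
That motif lay in windows of 8 of 13 matched members that rose and of 7.18% of matched tested genes. The heat shock element of one more unit, which contains the short form, lay in windows of 3 of 13 and of 0.534%.

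Among chaperones of the endoplasmic reticulum and the unfolded protein response 19 of 31 tested members rose and none fell (median 0.25). Hspa5, which encodes the chaperone BiP, had 709.8, 773 and 814 CPM in BPS livers, against 426, 411 and 417 CPM in control livers (0.87 ± 0.06). Dnajb9, a BiP cochaperone gene, had 97.5, 109.7 and 117 CPM in BPS livers, against 54.4, 54.1 and 53.4 CPM in control livers (1.00 ± 0.06). BPS libraries lay above all control libraries in both. Creld2 and Manf, which encode secreted stress proteins, rose by 1.01 ± 0.08 and 0.88 ± 0.06, and Xbp1, a transcription factor of this response, by 0.35 ± 0.05. In the ATF4 and amino acid response 3 of 26 tested members rose and 1 fell (median 0.07). That share is near the 16.8% called either way among all genes. Without control library 2, 1 rose. Ddit3, which encodes CHOP, did not pass (0.16 ± 0.18).

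Hspa5 is the classical carrier of the endoplasmic reticulum stress element, ERSE, in capitals in its promoter (RefSeq, GRCm38.p6, chr2:34771840-34772089, plus strand).
Hspa5: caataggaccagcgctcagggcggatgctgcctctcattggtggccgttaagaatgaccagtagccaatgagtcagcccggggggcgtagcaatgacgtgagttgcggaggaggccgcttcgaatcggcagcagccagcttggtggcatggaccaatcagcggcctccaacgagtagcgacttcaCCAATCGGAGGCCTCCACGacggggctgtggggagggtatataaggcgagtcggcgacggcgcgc
The element lay in windows of 7 of 16 matched members that rose and of 0.181% of matched tested genes. The 7 were Hspa5, Hsp90b1, Calr, Dnajc3, Creld2, Syvn1 and Ero1b. A match describes letters in a window, not a bound site. For each motif shown here only list members that rose were set beside all tested genes. Whether a motif goes with the rise was not tested.

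Interferon-response genes were broadly higher: 35 of 46 tested members rose and none fell, with a median of 0.47. Igtp, an interferon-induced GTPase gene, had 126, 126 and 126 CPM in BPS livers, against 65.1, 66.6 and 66.5 CPM in control livers (0.93 ± 0.06). Isg15, which encodes a ubiquitin-like modifier, had 20.7, 20.4 and 15.6 CPM in BPS livers, against 8.77, 10 and 6.94 CPM in control livers (1.14 ± 0.12). The groups of both genes were apart, with BPS higher. Irf7, a transcription factor of the response, rose by 0.75 ± 0.06 and Irgm2, an interferon-induced GTPase gene, by 0.76 ± 0.06, while Irf1 did not pass (0.04 ± 0.06).

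The Isg15 promoter (RefSeq, GRCm38.p6, chr4:156200819-156201068, minus strand) carries the interferon-stimulated response element in overlapping copies, in capitals.
Isg15: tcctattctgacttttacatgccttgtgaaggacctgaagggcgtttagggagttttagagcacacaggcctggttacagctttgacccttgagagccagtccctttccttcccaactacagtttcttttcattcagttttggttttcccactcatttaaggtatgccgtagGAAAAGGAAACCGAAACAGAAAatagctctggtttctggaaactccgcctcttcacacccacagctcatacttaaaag
It holds 3 matches, which span 56 to 78 bases before the start. The element lay in windows of 14 of 24 matched members that rose and of 4% of matched tested genes.

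Among acute phase genes, which the liver makes in inflammation, 26 of 40 tested members rose and 2 fell (median 0.26). Lcn2, which encodes a siderophore-binding protein, had 76, 79.5 and 83.3 CPM in BPS livers, against 38.4, 34.4 and 38.3 CPM in control livers (1.10 ± 0.06). Its groups did not overlap. Saa1 and Saa2, serum amyloid A genes of similar sequence whose reads may be shared, rose by 0.92 ± 0.07 and 1.17 ± 0.07, and Lbp, the endotoxin-binding protein gene, by 0.85 ± 0.06. In complement and coagulation 13 of 43 tested members rose and none fell (median 0.13), a count that became 22 without BPS library 1, 7 without BPS library 2, 6 without BPS library 3, 7 without control library 2 and 22 with the 6 libraries alone. Antigen presentation was mixed: 10 of 27 tested members rose and 5 fell (median 0.15), and 6 rose without BPS library 2. The class I-like genes H2-T22 and H2-T23 fell by 0.72 ± 0.06 and 0.59 ± 0.06, the immunoproteasome gene Psmb10 rose by 0.42 ± 0.08, and H2 genes are alike enough to share reads.

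Neutrophil markers and part of the other immune cell markers ran lower in the same livers. Of neutrophil markers 1 of 15 tested members rose and 10 fell (median -1.22), and their summed level was 28.6 to 34.2 CPM in BPS livers and 44.6 to 55.4 CPM in control livers. S100a9, a granulocyte calcium-binding protein gene, had 7.38, 8.9 and 7.31 CPM in BPS livers, against 17.8, 16.5 and 20.6 CPM in control livers (-1.22 ± 0.15). BPS libraries were all below the controls. The count of markers that fell was 5 without BPS library 2, 6 without BPS library 3 and 6 without control library 1. The marker that rose was Il1b, an inflammatory cytokine gene (1.25 ± 0.18). Of Kupffer cell and macrophage markers 1 of 24 tested members rose and 7 fell (median -0.13). Their summed levels overlapped, at 1877.54 to 1948.01 CPM in BPS livers and 1947.85 to 2015.29 CPM in control livers. Cd163, a haemoglobin scavenger receptor gene, had 7.85, 8.93 and 8.13 CPM in BPS livers, against 23.2, 21 and 23 CPM in control livers (-1.43 ± 0.11), and Marco, another scavenger receptor gene, fell by 0.95 ± 0.08. Clec4f and Timd4, which mark resident Kupffer cells, did not pass (0.02 ± 0.06 and -0.01 ± 0.08). The member that rose was Mpeg1, at 42 ± 1.77 FPKM in BPS livers and 30.5 ± 1.22 FPKM in control livers. Of lymphocyte markers 1 of 20 tested members rose and 6 fell (median -0.28), with a summed level of 28.4 to 34.5 CPM in BPS livers and 35.4 to 44.8 CPM in control livers. That count lower was 3 without BPS library 3 or without control library 2. The part of these cells in the interferon and acute phase results was not tested.

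**Figure D3:**
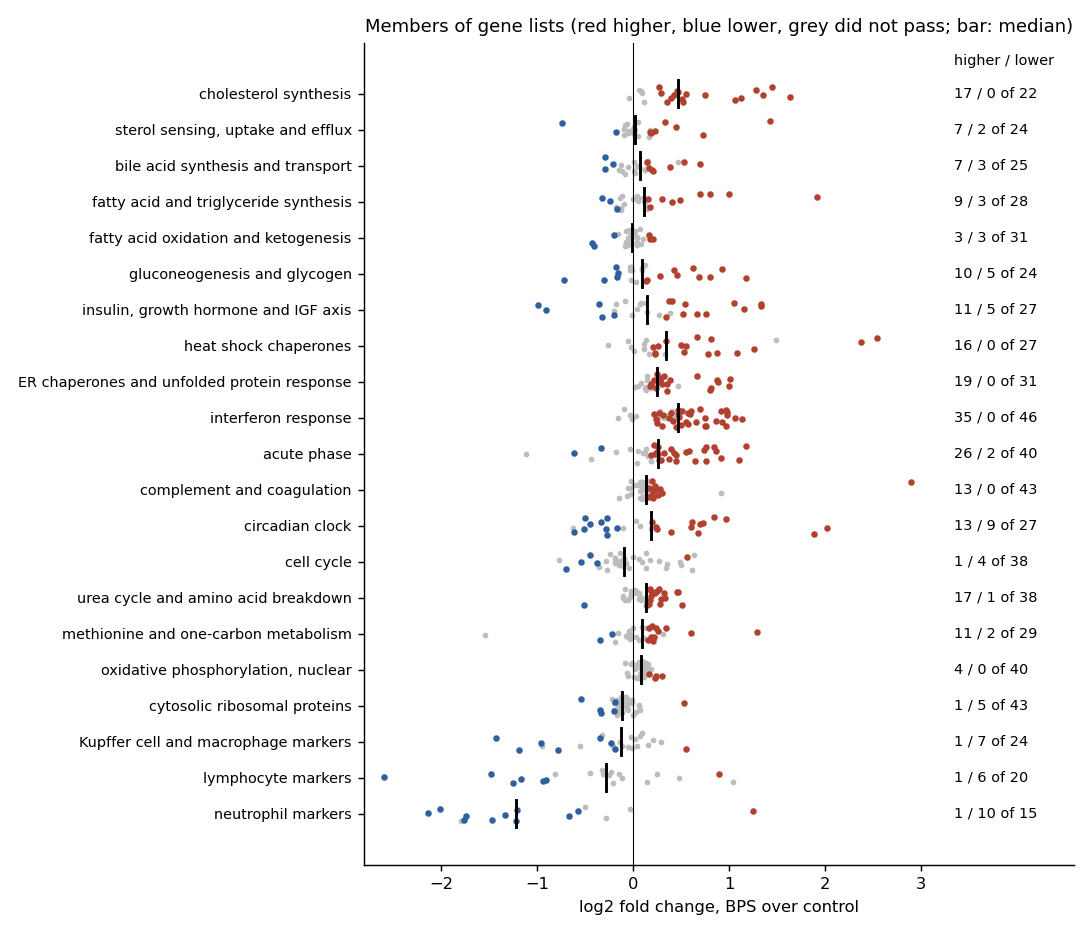
Log2 fold changes of BPS over control (horizontal) for the tested members of 21 gene lists, with medians as bars and the counts higher and lower at the right. Cholesterol synthesis (17 of 22 higher), both chaperone lists and the interferon response have no member that passed as lower, and neutrophil markers have a median of -1.22.

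The circadian clock changed in most of its genes: 13 of 27 tested members rose and 9 fell (median 0.19). ARNTL with CLOCK or NPAS2 drives the Per, Cry, Nr1d and Dbp genes, and PER, CRY and NR1D proteins feed back on it. Arntl, also called Bmal1, had 13.8, 10.6 and 11.5 CPM in BPS livers, against 3.26, 2.97 and 2.62 CPM in control livers (2.02 ± 0.14). Npas2 had 2.14, 1.97 and 2.65 CPM in BPS livers, against 0.326, 0.354 and 1.13 CPM in control livers (1.89 ± 0.47). Dbp, a clock output gene, had 67.4, 76.8 and 65.9 CPM in BPS livers, against 107, 107 and 109 CPM in control livers (-0.62 ± 0.07). The groups of all 3 were apart, with the activators higher and Dbp lower in BPS. Of the repressors, Per1, Cry1 and Ciart rose by 0.73 ± 0.08, 0.70 ± 0.12 and 0.85 ± 0.12, while Nr1d1, Per3 and Cry2 fell by 0.51 ± 0.07, 0.45 ± 0.11 and 0.33 ± 0.07. Clock did not pass (0.19 ± 0.11). The hour of sampling is not given in the sources used here, so hour and exposure cannot be told apart for these genes. The same limit holds for any other gene reported here whose level follows the hour. It also holds for the comparisons of BPS with the other exposures.

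**Figure D4:**
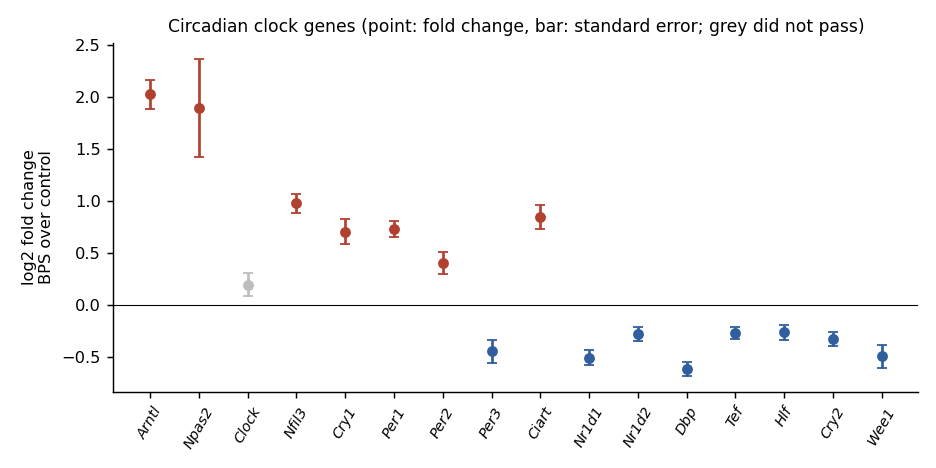
Log2 fold change of BPS over control (points, vertical) with its standard error (bars) for 16 clock genes. Arntl and Npas2 lie highest and Dbp lies lowest of the 16.

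Ciart, a clock repressor gene, holds 3 E-boxes (CACGTG, which reads the same on both strands) in the 250 bases before its start, in capitals (RefSeq, GRCm38.p6, chr3:95882229-95882478, minus strand).
Ciart: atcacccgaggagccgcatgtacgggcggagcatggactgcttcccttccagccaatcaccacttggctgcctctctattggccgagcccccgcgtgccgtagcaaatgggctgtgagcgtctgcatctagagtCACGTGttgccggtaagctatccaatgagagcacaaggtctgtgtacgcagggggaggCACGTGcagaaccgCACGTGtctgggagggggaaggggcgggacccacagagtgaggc
E-boxes lay in windows of 4 of 11 matched clock genes that rose and of 11.2% of matched tested genes. The D-box TTATGNAA lay in windows of 2 of 11 and of 2.87%, and the ROR element TAGGTCA in windows of 2 of 11 and of 2.5%.

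Drug-metabolising genes moved both ways: of P450 genes and their regulators 13 of 47 tested members rose and 9 fell (median 0.01), and 8 rose without BPS library 2 or BPS library 3. Cyp3a11, a major Cyp3a enzyme gene, had 514, 573 and 617 CPM in BPS livers, against 928, 825 and 969.7 CPM in control livers (-0.68 ± 0.06), and Cyp3a13 rose by 0.68 ± 0.06. Cyp3a genes may share reads. The receptor gene Nr1i3, which encodes CAR, did not pass (-0.02 ± 0.06), and Nr1i2, which encodes PXR, rose by 0.23 ± 0.06. Among conjugation enzymes 8 of 48 tested members rose and 9 fell (median 0.03), and 5 fell without control library 2. Sult3a2, a sulfotransferase gene of female liver, had 126, 129.9 and 131 CPM in BPS livers, against 48.2, 46.4 and 42.8 CPM in control livers (1.49 ± 0.06). Its relative Sult3a1 rose by 1.02 ± 0.05, with reads possibly shared. Among NRF2 and antioxidant genes 5 of 33 tested members rose and 5 fell (median 0.01), with 2 to 4 higher and 2 to 4 lower when any 1 library was left out; the lowest counts were without BPS library 2 or control library 1 for genes that rose, and without BPS library 3 or control library 2 for genes that fell.

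Esr1, the estrogen receptor alpha gene, had 36, 35.9 and 36.3 CPM in BPS livers, against 24.1, 20.7 and 20 CPM in control livers (0.74 ± 0.13). BPS libraries were all higher. Hnf4a, a regulator of hepatocyte identity, rose by 0.58 ± 0.05. Of steroid and metabolic nuclear receptors 6 of 30 tested members rose and 4 fell (median -0.02), and in steroid metabolism 9 of 24 tested members rose and 3 fell (median 0.00). Sult1e1, which inactivates estrogens by sulfation, had 3.44, 2.94 and 3.28 CPM in BPS livers, against 7.11, 8.15 and 6.28 CPM in control livers (-1.16 ± 0.21). Of genes biased to female liver 17 of 42 tested members rose and 7 fell (median 0.06), and of genes biased to male liver 5 of 32 tested members rose and 6 fell (median -0.06). Mup7, a major urinary protein gene, had 94.3, 79.7 and 82.6 CPM in BPS livers, against 202, 219 and 241 CPM in control livers (-1.37 ± 0.16). The mean of Mup18 was higher and that of Mup15 lower in BPS livers, given here as levels without a call. Mup18 averaged 490 ± 45.6 FPKM in BPS livers and 402 ± 23.2 FPKM in control livers. Mup15 averaged 346 ± 10.5 FPKM in BPS livers and 657 ± 397 FPKM in control livers, with a wide spread among the controls. Mup genes are near-identical, and reads may be shared among them.

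In the urea cycle and amino acid breakdown 17 of 38 tested members rose and 1 fell (median 0.13), with the arginase gene Arg1 at 1999 ± 30.8 CPM in BPS livers and 1585 ± 12.9 CPM in control livers (0.34 ± 0.05). In methionine and one-carbon metabolism 11 of 29 tested members rose and 2 fell (median 0.09). Bhmt, which remethylates homocysteine, had 5098, 5195 and 5343 CPM in BPS livers, against 3401, 3384 and 3477 CPM in control livers (0.61 ± 0.05). The Bhmt groups did not overlap. Of periportal genes 12 of 25 tested members rose and 1 fell (median 0.14), and of pericentral genes 3 of 25 tested members rose and 4 fell (median -0.08), with Lgr5, a Wnt target, at -0.95 ± 0.21. Of nuclear genes of oxidative phosphorylation 4 of 40 tested members rose and none fell (median 0.09). Of cytosolic ribosomal proteins 1 of 43 tested members rose and 5 fell (median -0.11). Neither share exceeded the 16.8% called either way among all genes. The count of ribosomal protein genes that fell was 23 in a fit of the 6 libraries alone, 3 with the replicate number as a block, and 1 (without control library 2) to 9 (without BPS library 1) with 1 library left out; oxidative phosphorylation genes that rose numbered 11 with the 6 libraries alone and 2 without BPS library 2, BPS library 3, control library 1 or control library 3. Pericentral genes that fell numbered 2 without control library 1 and 7 with the 6 libraries alone. In the matrix and fibrosis list 5 of 28 tested members rose and 1 fell (median 0.04), with the basement membrane collagen Col4a1 at 0.60 ± 0.07, and the genes that rose numbered 3 without control library 1. Of immediate early genes 8 of 25 tested members rose and 3 fell (median 0.30), with Jun at 0.76 ± 0.10 and Egr1 at -0.52 ± 0.09.

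Fst had 0.555, 0.219 and 0.693 CPM in BPS livers, against 3.77, 3.57 and 3.59 CPM in control livers (-2.89 ± 0.35). H2bc8, a histone gene, had 1.11, 1.06 and 0.662 CPM in BPS livers, against 4.4, 4.52 and 4.29 CPM in control livers (-2.21 ± 0.22). Both were lower in every BPS library, at levels under 5 CPM throughout. In the activin, follistatin and hepatokine list 10 of 28 tested members rose and 2 fell (median 0.07). Pctp, which encodes a phosphatidylcholine transfer protein, had 58.4, 61.5 and 57.8 CPM in BPS livers, against 134, 142 and 139 CPM in control livers (-1.22 ± 0.06). Rgs16, a regulator of G protein signalling, fell by 1.00 ± 0.06, and Serpina7, which encodes thyroxine-binding globulin, by 1.69 ± 0.13.

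BPS was then tested against each of the other exposures at the same labelled dose and age, 3 pairs with p-values adjusted over genes and pairs together. Higher and lower genes in BPS numbered 1419 (10.2%) and 1580 (11.4%) against 2,4-BPS, 2644 (19.1%) and 2521 (18.2%) against BPSIP, and 1912 (13.8%) and 1740 (12.5%) against E2. BPS and 2,4-BPS differ in the place of a hydroxyl group, and BPSIP carries an isopropyl ether in place of a hydroxyl group of BPS. In what follows, values in parentheses are log2 differences of BPS over the other exposure.

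Against 2,4-BPS, Cyp4a14 averaged 1023 ± 33.5 CPM in BPS and 173 ± 10.7 CPM in 2,4-BPS livers (2.56 ± 0.06). Hspa1b averaged 24.2 ± 0.728 CPM in BPS and 3.94 ± 0.51 CPM in 2,4-BPS livers (2.61 ± 0.14), and Lcn2 79.6 ± 3.61 CPM in BPS and 229 ± 17.8 CPM in 2,4-BPS livers (-1.53 ± 0.06). The hydroxylase and the chaperone were thus higher in BPS and the acute phase gene lower. Heat shock chaperones were higher in 20 of 27 and lower in 1, fatty acid oxidation genes higher in 23 of 31 and lower in none, and cholesterol synthesis genes higher in 11 of 22 and lower in none. Acute phase genes were higher in 1 of 40 and lower in 24, complement and coagulation genes higher in 2 of 43 and lower in 24, and Kupffer cell and macrophage markers lower in 21 of 24 and higher in none. Of other cell type markers, sinusoidal endothelial markers were lower in 10 of 22 and higher in none, lymphocyte markers lower in 6 of 20 and higher in none and skeletal muscle markers lower in 6 of 13 and higher in none, and the part of these cells in the differences was not tested. Tfrc did not pass (0.15, 95% interval -0.02 to 0.33), nor did Fst (-0.03, 95% interval -0.85 to 0.79).

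Against BPSIP, Hmgcs1 averaged 318 ± 11.8 CPM in BPS and 848 ± 23.5 CPM in BPSIP livers (-1.42 ± 0.05). Igtp averaged 126 ± 0.133 CPM in BPS and 444 ± 12.8 CPM in BPSIP livers (-1.82 ± 0.06), and Igfbp1 200.2 ± 3.47 CPM in BPS and 7.26 ± 0.713 CPM in BPSIP livers (4.78 ± 0.07). The sterol and interferon genes were lower in BPS and the IGF binding protein gene far higher. Cholesterol synthesis genes were lower in 18 of 22 and higher in none, interferon-response genes higher in 9 of 46 and lower in 25, and antigen presentation genes higher in 1 of 27 and lower in 24. Cyp4a and PPAR alpha targets were higher in 28 of 33 and lower in 2, fatty acid oxidation genes higher in 27 of 31 and lower in none, and female-biased genes higher in 30 of 42 and lower in 2. Markers of immune cells differed as well, with Kupffer cell and macrophage markers lower in 20 of 24 and higher in none, lymphocyte markers lower in 13 of 20 and higher in none and neutrophil markers lower in 9 of 15 and higher in none; their part in these differences was not tested. Hsph1 did not pass (-0.04, 95% interval -0.16 to 0.07), nor did Isg15 (-0.01, 95% interval -0.25 to 0.23) or Esr1 (0.10, 95% interval -0.17 to 0.37).

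Against E2, Thrsp averaged 1199 ± 44.8 CPM in BPS and 53.5 ± 2.72 CPM in E2 livers (4.49 ± 0.06). Dbp averaged 70 ± 5.93 CPM in BPS and 11.1 ± 1.1 CPM in E2 livers (2.66 ± 0.08), and Cdkn1a 29.2 ± 2.26 CPM in BPS and 41.9 ± 3.25 CPM in E2 livers (-0.52 ± 0.10). The lipogenic and clock genes were higher in BPS and the cell cycle inhibitor lower. Fatty acid and triglyceride synthesis genes were higher in 22 of 28 and lower in 3, clock genes higher in 22 of 27 and lower in 1, and heat shock chaperones higher in 16 of 27 and lower in 1. Male-biased genes were higher in 17 of 32 and lower in 2, female-biased genes higher in 21 of 42 and lower in 11, and cytosolic ribosomal protein genes lower in 25 of 43 and higher in none. Kupffer cell and macrophage markers were higher in 9 of 24 and lower in 3, and their part was not tested. Socs2 did not pass (0.06, 95% interval -0.10 to 0.22), nor did Igfbp1 (0.08, 95% interval -0.04 to 0.19) or Sqle (0.08, 95% interval -0.06 to 0.22).

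Pianp, a membrane protein gene, was lower in BPS than in each of the other exposures: it averaged 0.95 ± 0.379 CPM in BPS and 4.92 ± 0.433 CPM in 2,4-BPS livers (-2.38 ± 0.25), 4.94 ± 0.863 CPM in BPSIP livers (-2.39 ± 0.25) and 5.73 ± 0.649 CPM in E2 livers (-2.60 ± 0.25). Alas1 went the other way, at 805 ± 48.9 CPM in BPS and 515 ± 22.5 CPM in 2,4-BPS livers (0.65 ± 0.05), 664 ± 19.9 CPM in BPSIP livers (0.28 ± 0.05) and 423 ± 15.8 CPM in E2 livers (0.93 ± 0.05).

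**Figure D5:**
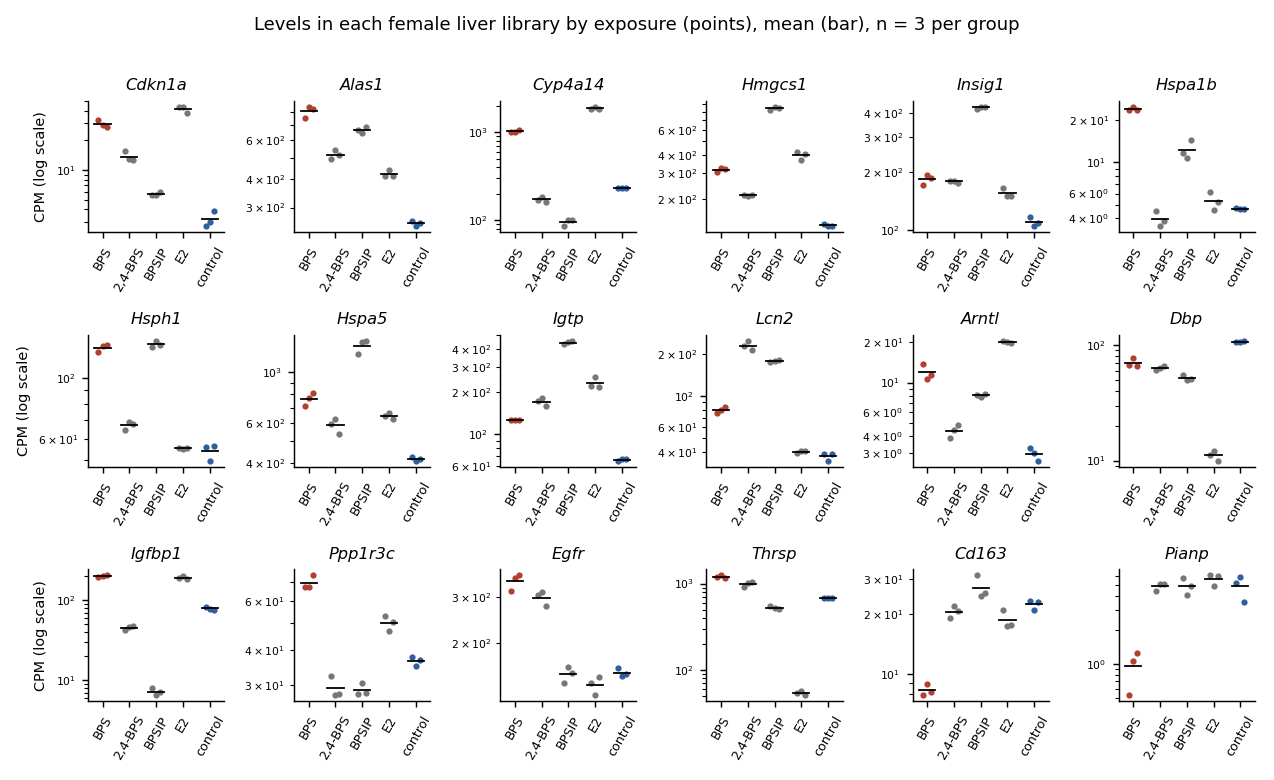
Levels in CPM (vertical, log scale) of 18 genes in each female library (points) with group means (bars, n = 3) for BPS, 2,4-BPS, BPSIP, E2 and control. Alas1, Hspa1b and Egfr have their highest mean in BPS livers, and Cd163 and Pianp their lowest.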

How the data were processed

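RNA of mouse liver was sequenced from libraries made with a SMARTer kit, per the labels' protocols. HISAT2, HTSeq, DESeq2 and R 3.2.0 are named in the submitters' processing notes; the build, the annotation and whether strand was used are not stated in these sources, so antisense partners cannot be told apart. Raw counts per gene were used as deposited. The deposited FPKM equal these counts divided by the library sum and a fixed length per gene, to a relative deviation of 1.39e-06, and served only for a level per length.

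The counts of 15 female libraries (5 groups of 3) were fitted with edgeR 4.0.16 in R 4.3.3 (filterByExpr, TMM, robust quasi-likelihood test; Benjamini-Hochberg threshold 0.05 over all genes, or over genes and pairs). Male libraries were not used. No libraries of a group agreed within counting noise. Replicate numbers did not pair the groups. Alternatives were RLE factors, no filter, DESeq2 1.42.0, a replicate block, the 6 libraries alone, a minimum change of 1.5-fold, and leaving out each library.

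The comparison and 47 gene lists were chosen with earlier results of these data known; lists carry no set test. Named genes were drawn from a rule: the 10 largest changes and the 10 smallest p each way (mean of at least 1 CPM, no overlap, no predicted models), up to 6 called members per list plus members that complete a step or pair, the 4 largest changes each way per pair of exposures, and a panel of liver genes. Lcn2, Igtp and the other genes given for pairs of exposures were chosen among these after their values were seen. Promoters came from RefSeq (GRCm38.p6) and were matched by symbol. Some genes that the rule names are not reported here.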

Additional observations from a re-analysis of the deposited data

How the results depend on the processing

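Genes higher and lower in BPS than in control livers numbered 1281 and 1041 with RLE factors, 1273 and 1014 without a filter, 1666 and 1346 with the 6 libraries alone, 1403 and 1155 with DESeq2, and 932 to 1205 and 728 to 895 with 1 library left out, beside 1293 and 1040. Testing for a change of at least 1.5-fold, by construction a stricter test, called 105 higher and 58 lower against control, 86 and 133 against 2,4-BPS, 315 and 506 against BPSIP, and 223 and 133 against E2. With the replicate number as a block, 1249 and 988 were called against control; deviations of equally numbered libraries correlated at 0.108, -0.113 and 0.105, so the numbers mark no pairing. Among the 136 genes given with a fold change, 117 were called and none of these turned sign under the settings named here; 4 (Cdt1, Hmox1, Pck1 and Top2a) lost the call under some setting other than the 1.5-fold test, under which 56 lost it, Pck1 also with RLE factors (adjusted p = 0.0512) and without a filter (adjusted p = 0.0593). With 1 library left out, 15 to 17 cholesterol synthesis genes, 15 to 17 heat shock chaperones, 15 to 20 endoplasmic reticulum chaperones and 30 to 35 interferon-response genes were higher. Among other lists, the lower gluconeogenesis genes numbered 2 without BPS library 1 or any control library, and the higher steroid metabolism genes 5 without BPS library 3, control library 1 or control library 2. With 3 libraries a group, small changes are near what the spread between libraries allows, and litter was not tested.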

Other observations

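The following gene groups were chosen after the values had been seen, and are descriptions. Of 26 glucocorticoid-responsive genes 15 were higher and 1 lower in BPS than in control livers (median 0.33). Fkbp5, a cochaperone of the glucocorticoid receptor, had 251, 267 and 270.2 CPM in BPS livers, against 157, 155 and 158 CPM in control livers (0.74 ± 0.05), and its groups did not overlap. Of 27 nucleolar genes of ribosome assembly 17 were higher and none lower (median 0.32), with the snoRNP core genes Nop58 and Nop56 at 0.93 ± 0.09 and 0.86 ± 0.09. Of 18 genes of haem synthesis and breakdown 3 were higher and 3 lower: Alas1, Cpox (0.40 ± 0.05) and Clpx (0.93 ± 0.05), which encodes a protease chaperone, against Alad (-0.45 ± 0.06), Uros (-0.34 ± 0.09) and the haem oxygenase gene Hmox1 (-0.28 ± 0.08). Of 16 hepatocyte transcription factors 6 were higher and 1 lower, with Onecut1 at 1.39 ± 0.16. Of 20 tested Serpina genes 11 were higher and 1 lower, with Serpina5 at 2.08 ± 0.43; they are alike in sequence and may share reads.

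By position on GRCm38.p6, 271 windows of 5 Mb held at least 20 tested genes, and the median window had 16.7% of its genes called. In chromosome 2 from 175000001 to 180000000, 10 of 26 tested genes were called and all 10 were lower in BPS. In chromosome 12 from 100000001 to 105000000, 19 of 53 were called, 17 higher and 2 lower. The largest share was 42.9%, in chromosome 3 from 120000001 to 125000000, with 4 genes higher and 5 lower. These windows were picked for their counts and were not tested, and neighbouring genes of a family may share reads.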
